A study of Mus musculus with 5 samples.

Results

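A set of 10 genes was picked as markers of the cells with high Sspo in the adult mouse midbrain. Sspo encodes SCO-spondin, and the other 9 are Spdef, Creb3l4, Npsr1, Wfdc2, Spp2, Igfbp6, Rbp4, Ttr and Car3. They are 10 of the 16347 genes in the table, and were chosen because earlier work on these same cells had found them high together with Sspo, so their difference between cell classes is a description and not a finding. The cells were sorted 1 to a well, and each was made into its own full-length library without molecular identifiers.

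The Foxj1 line carries an inducible Cre driven by Foxj1, a factor of cells with motile cilia, and a tdTomato reporter at Rosa26 (FoxJ1CreERT2 R26TdT). It gave 240 cells from the lateral ventricle, 245 from the third ventricle, 547 from the midbrain aqueduct and 114 from the spinal cord, taken from 10 animals (5 females and 5 males). The Nkx2-2 line (Nkx2-2Cre R26TrapC), in which Cre follows a factor of the ventral neural tube, gave 327 midbrain cells from 7 females. All mice were 3 months old, and every group carried a Cre allele and a reporter. Each group was 1 sample, the animal behind each well was not given, and no difference between groups could be tested. The names of the cells of the lateral and the third ventricle in the table (Forebrain and Tanycytes) were matched to those samples by anatomy and not by an exact label.

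Midbrain cells of both lines were split at 1000 CPM (counts scaled to a common total) of Ccdc153, a gene of ciliated ependymal cells. The Foxj1 line midbrain had 230 Ccdc153-low cells and 317 Ccdc153-high cells. The Nkx2-2 line had 308 and 19. Of the Foxj1 line midbrain cells, 44 in the low class and 27 in the high class lay between 500 and 2000 CPM, and the values nearest the threshold were 971 CPM below it and 1022 CPM above it. In the Nkx2-2 line these nearest values were 828 and 1299 CPM. Median depth per cell ranged from 691446 reads (Ccdc153-high midbrain) to 1206570 (Ccdc153-low Nkx2-2 line) over the 7 cell groups. Levels are summed counts over the cells of a group, scaled to CPM, with 95% Poisson intervals where given. These intervals cover counting error only, since a molecule could be read more than once.

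The subcommissural organ is a gland of modified ependymal cells at the place where the third ventricle opens into the aqueduct. It secretes SCO-spondin into the cerebrospinal fluid, where the protein assembles into Reissner's fibre, a thread that runs through the aqueduct into the central canal. Making a very large secreted glycoprotein places a load on the endoplasmic reticulum, which in other glandular cells is met by transcription factors of secretory differentiation and of the unfolded protein response. Of the marker genes listed for the subcommissural organ only Sspo and Spdef were used, both of them among the 10 genes, so the high-Sspo cells are named here by Sspo and given no cell type name.

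The promoters of Sspo and of both transcription factor genes are shown because Sspo names the set and the other two are the regulators in it. Each is the 250 bases before the RefSeq start on GRCm38.p6, read along the gene's strand. The Sspo window lies at chr6:48447924-48448173 on the plus strand, the Spdef window at chr17:27728952-27729201 on the minus strand and the Creb3l4 window at chr3:90243513-90243762 on the minus strand. Capitals mark matches to the motifs searched.
Sspo: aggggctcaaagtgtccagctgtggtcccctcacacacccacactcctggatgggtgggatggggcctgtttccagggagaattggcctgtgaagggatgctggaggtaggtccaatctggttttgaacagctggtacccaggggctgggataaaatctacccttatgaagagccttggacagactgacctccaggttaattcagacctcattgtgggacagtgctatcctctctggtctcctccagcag
Spdef: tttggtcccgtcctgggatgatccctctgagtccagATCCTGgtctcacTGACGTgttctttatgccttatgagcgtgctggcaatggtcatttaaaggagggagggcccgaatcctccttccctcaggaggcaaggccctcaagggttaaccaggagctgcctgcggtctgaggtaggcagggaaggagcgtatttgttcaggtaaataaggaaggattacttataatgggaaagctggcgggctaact
Creb3l4: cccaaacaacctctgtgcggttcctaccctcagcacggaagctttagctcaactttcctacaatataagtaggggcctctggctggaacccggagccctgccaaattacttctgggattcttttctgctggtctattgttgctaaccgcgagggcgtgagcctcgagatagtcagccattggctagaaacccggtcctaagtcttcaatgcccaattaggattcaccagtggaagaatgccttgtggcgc
The motifs were TGACGT, the core of the element bound by CREB and ATF factors, CAGGAT and CGGAT, which hold a GGAT core, and TGTTTAC, a forkhead motif, each searched on both strands. The Spdef window held CAGGAT on its reverse strand, 214 bases before the start, and TGACGT, 201 bases before it. The Sspo and Creb3l4 windows held no letters matching any of the 4. Among the windows of all 32851 promoters, TGACGT was present in 6.47%, CAGGAT in 13.6%, CGGAT in 13.4% and TGTTTAC in 3.17%. Of the 8 genes searched (Car3 and Ttr were not), CAGGAT was in the windows of Npsr1, Spdef and Wfdc2, TGACGT in that of Spdef, TGTTTAC in that of Rbp4 and CGGAT in 0. A match of this kind is a description of the letters only.

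All 10 genes were higher in Ccdc153-low than in Ccdc153-high midbrain cells of the Foxj1 line, from 9.27-fold for Car3 to 25.8-fold for Npsr1, with a median of 18.9. The class split was part of how the genes were chosen. Of 10843 genes with at least 10 CPM in either class, 18.3% were at least 2-fold higher in Ccdc153-low cells and 13.8% at least 2-fold lower, and the median over all of them was 1.13-fold. The background for a 10-fold excess was 2.93%, and 9 of the 10 genes reached it, all but Car3.

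Sspo (chr6:48448229-48501250, plus strand, GRCm38) stood at 8826 CPM (8813 to 8840) in Ccdc153-low midbrain cells and at 466 CPM (463 to 468) in Ccdc153-high ones. It stood at 263 CPM in Ccdc153-low cells of the Nkx2-2 line, 10.4 in its 19 Ccdc153-high cells, 9.96 in lateral ventricle cells, 8.56 in spinal cord cells and 4.81 in cells of the third ventricle. The level over the midbrain low class was thus 18.9-fold that of the high class, and the levels of the other Foxj1 line regions lay below both. Single cells of the low class ran from 0 to 35364 CPM with a median of 8653.

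Spdef (chr17:27714352-27728955, minus strand), an ETS transcription factor needed for goblet and other mucus-secreting cells, had 1587 CPM in Ccdc153-low midbrain cells, 78.5 in Ccdc153-high ones and 49.6 in Ccdc153-low Nkx2-2 line cells. Elsewhere it lay between 0.376 CPM (lateral ventricle) and 1.52 CPM (cells of the third ventricle), with 0 reads in the 19 Ccdc153-high Nkx2-2 line cells, which allows a share of cells of up to 17.6%. Creb3l4 (chr3:90237500-90243512, minus strand), a membrane-bound factor of the CREB3 family that is released by cleavage in the secretory pathway, had 681, 39.5 and 20.8 CPM in those 3 midbrain groups. Creb3l4 was the regulator with more signal outside the midbrain: it was read in 11.8% of cells of the third ventricle (95% exact binomial interval 8.07 to 16.6), at a summed 14.6 CPM, against 4.60 CPM for lateral ventricle and 2.26 for spinal cord cells. Its highest cell there had 275 CPM.

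Npsr1 (chr9:24097996-24316398, plus strand), the G protein-coupled receptor for neuropeptide S, had 607 CPM in Ccdc153-low and 23.6 in Ccdc153-high midbrain cells, and 20.2 in Ccdc153-low Nkx2-2 line cells. In the 3 other Foxj1 line regions it was at 1.88 CPM or less. It was the only receptor among the genes.

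Wfdc2, Spp2 and Igfbp6 encode secreted proteins. Wfdc2 (chr2:164562413-164568510, plus strand), a whey acidic protein domain protein secreted by many epithelia, had 1432 CPM in Ccdc153-low, 75.4 in Ccdc153-high and 53.0 in Ccdc153-low Nkx2-2 line cells. Spp2 (chr1:88406961-88426438, plus strand), a secreted phosphoprotein with a cystatin-like domain first known from bone, had 3378, 137 and 109 CPM in the same groups. Igfbp6 (chr15:102144362-102149511, plus strand), a binding protein with a preference for IGF2, had 571, 39.4 and 30.8 CPM. Outside the midbrain these 3 genes were near the floor of the measurement. Spp2 was at 0.358 CPM or less, Wfdc2 at 0.868 or less, and Igfbp6 was read in 1 of the other regions' groups only, at 0.152 CPM in the third ventricle. Igfbp6 had 0 reads in the 240 lateral ventricle cells, which allows a share of cells of up to 1.53%, and in the 114 spinal cord cells, which allows 3.18%.

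The carriers of retinol and thyroxine were Rbp4 (chr19:38116629-38125281, minus strand), which transports retinol, and Ttr, transthyretin, which transports thyroxine and binds Rbp4. Rbp4 had 1421 CPM in Ccdc153-low and 78.2 in Ccdc153-high midbrain cells and 44.7 in Ccdc153-low Nkx2-2 line cells, and Ttr 708, 37.5 and 26.0. In the spinal cord Rbp4 stood at 10.2 CPM, read in 7.89% of cells (3.67 to 14.5), against 1.83 CPM in the lateral ventricle and 4.77 in the third ventricle. Ttr was read at low level in the other Foxj1 line regions too: in 45.6% of spinal cord cells at a summed 9.15 CPM, 56.2% of those of the lateral ventricle at 9.61 CPM and 38.8% of those of the third ventricle at 5.15 CPM. In the Nkx2-2 line, Ttr was read in 4.87% of Ccdc153-low cells and in 0 of 19 Ccdc153-high cells, which allows up to 17.6%. With each cell thinned to 20000 reads, the Ttr shares were 62.2% in Ccdc153-low and 29.0% in Ccdc153-high midbrain cells, 18.3% for the lateral ventricle, 9.80% for the third ventricle and 9.65% for the spinal cord, and 1.95% in Ccdc153-low Nkx2-2 line cells. Ttr is made in very large amounts by the choroid plexus, and whether the low Ttr level of the other regions was made by those cells or came from free RNA cannot be told apart here.

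Car3 (chr3:14863512-14872523, plus strand), a cytosolic carbonic anhydrase that is not secreted, was the least restricted of the genes. It had 645 CPM in Ccdc153-low and 69.6 CPM in Ccdc153-high midbrain cells, and 72.1 CPM for spinal cord cells, 66.7 for those of the lateral ventricle and 79.3 for those of the third ventricle. Most Car3 reads of the Ccdc153-high class (65.7%) lay in 16 cells with high Sspo, described further on, and without them it had 24.8 CPM, below all 3 regions. Car3 was read in 39.2% of the lateral ventricle cells, 37.1% of those of the third ventricle and 28.1% of those of the spinal cord, and 59 (24.6%), 55 (22.4%) and 22 (19.3%) of them had 100 CPM or more, against 13.9% of the Ccdc153-high midbrain cells. No cell of these regions reached 1000 CPM, and 42 Ccdc153-low midbrain cells did.

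**Figure D1:**
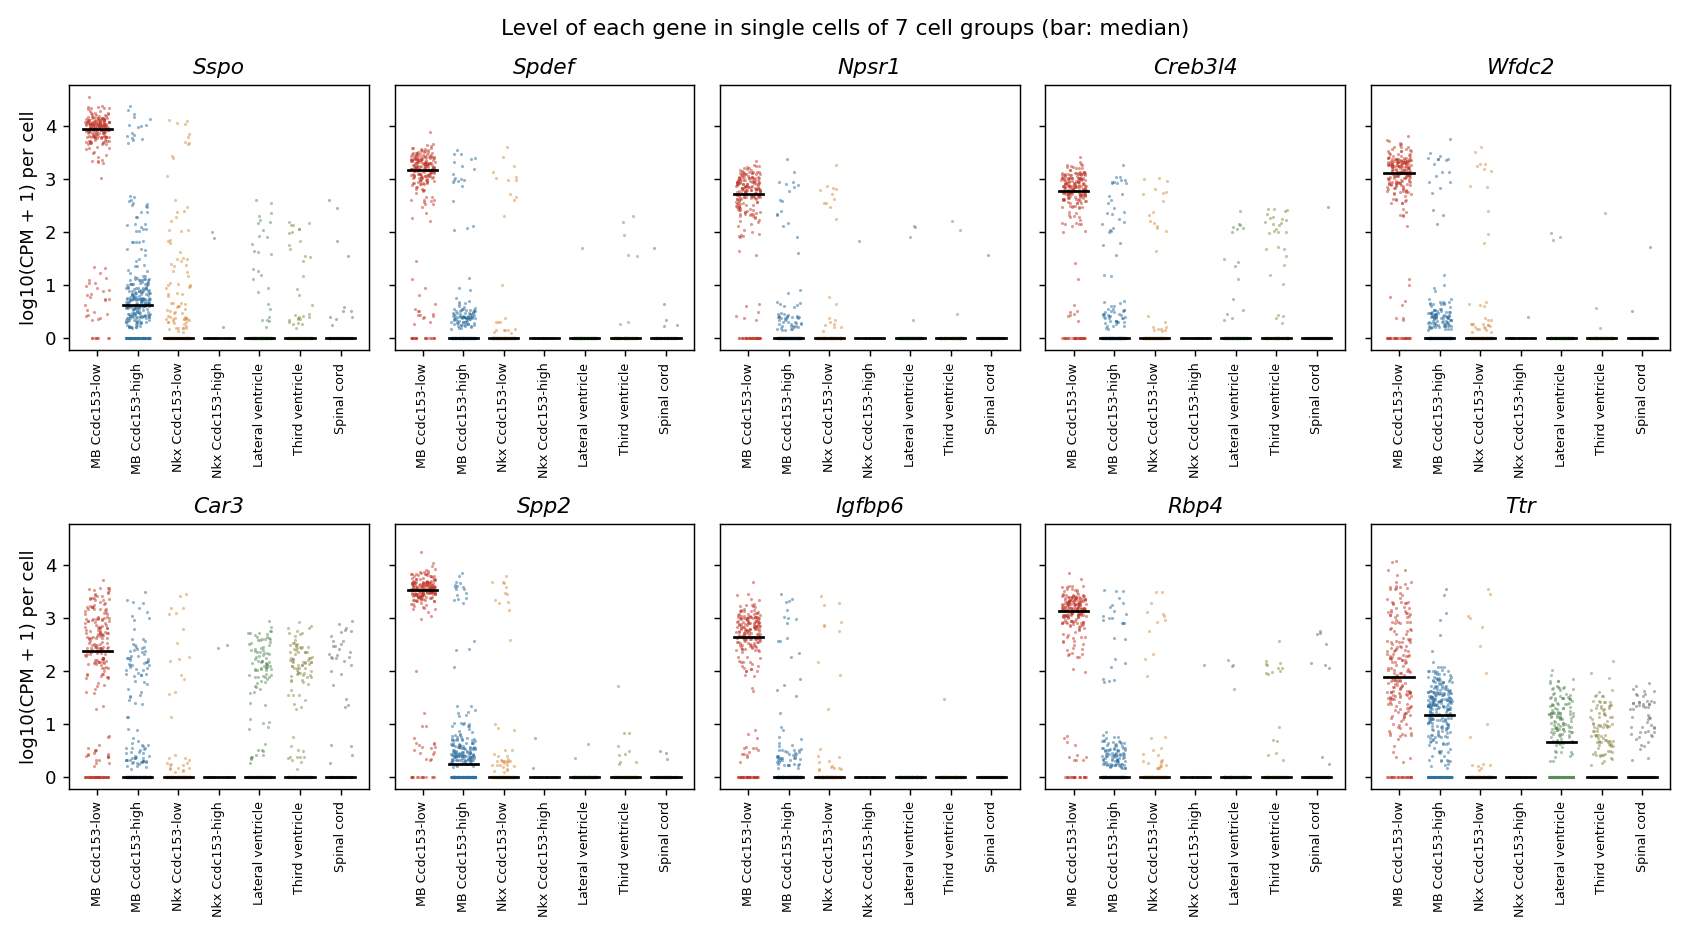
Level of the 10 genes in single cells, as log10(CPM + 1) on the y axis, for the 7 cell groups on the x axis (MB, midbrain of the Foxj1 line; Nkx, midbrain of the Nkx2-2 line); each point is a cell and each bar the median of the group. All genes but Car3 and Ttr are high in most Ccdc153-low midbrain cells and in a few cells of the Ccdc153-high and Nkx2-2 line groups, Car3 is also read in other regions, and Ttr in Ccdc153-low cells runs from 0 to 12044 CPM around a median of 77.0.

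Levels were compared between genes only per kilobase of exon. On that scale, in Ccdc153-low midbrain cells, Spp2 was highest at 3405 CPM per kilobase, followed by Wfdc2 at 1256 and Rbp4 at 1058. Spdef (689), Ttr (597), Sspo (556) and Igfbp6 (513) came next, then Creb3l4 (405), Car3 (225) and Npsr1 (154). Sspo held the most reads of the 10 genes and was behind 5 of them per kilobase. Its exons add up to 15.9 kilobases against 0.992 for Spp2.

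The cells fell into separate ranges of Sspo. Of the 230 Ccdc153-low midbrain cells, 196 had 1000 CPM or more, 34 had less than 100 CPM, and 0 lay between 100 and 1000. The lowest of the 196 had 1051 CPM and the highest of the 34 had 21.2 CPM. Of the 317 Ccdc153-high cells, 16 had 1000 CPM or more (4788 to 23907) and 21 lay between 100 and 1000. In the Nkx2-2 line, 12 Ccdc153-low cells and 0 of the 19 Ccdc153-high cells reached 1000 CPM. No cell of the other 3 regions did, and the highest values were 408 CPM for spinal cord, 403 for lateral ventricle and 155 for cells of the third ventricle.

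**Figure D2:**
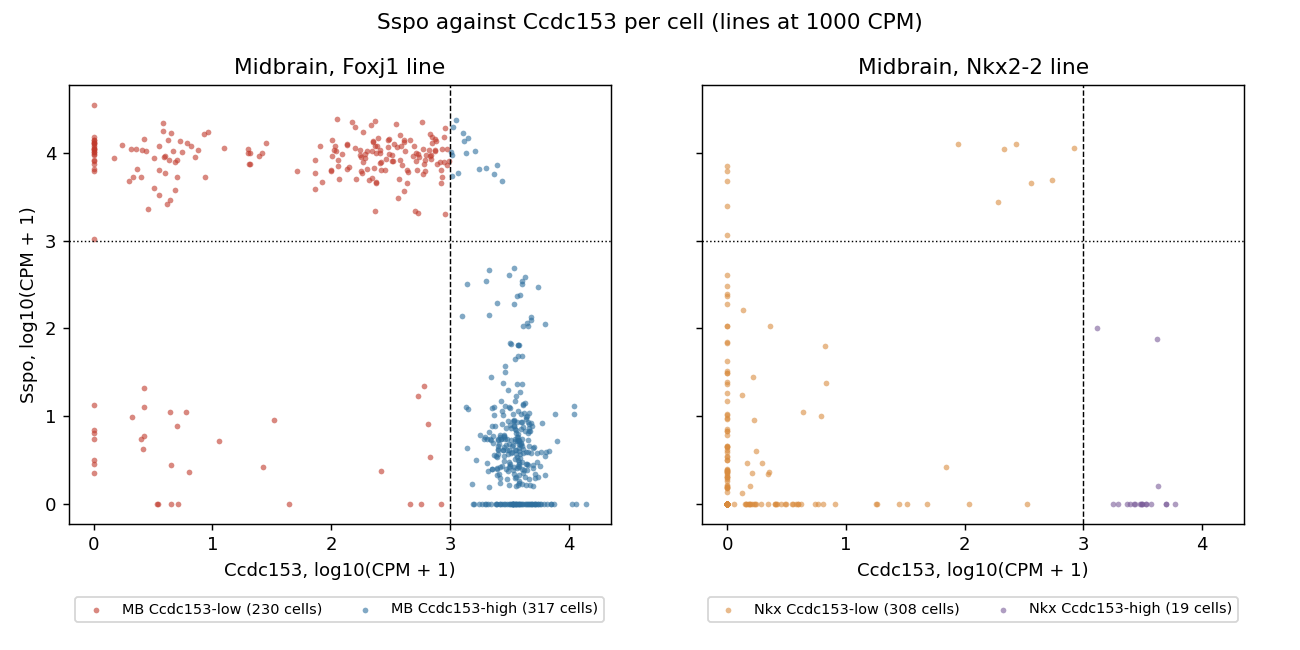
Sspo against Ccdc153 in single midbrain cells, both as log10(CPM + 1), for the Foxj1 line (left) and the Nkx2-2 line (right); each point is a cell, and lines mark 1000 CPM on each axis. In the Foxj1 line 196 cells lie in the upper left, 16 in the upper right close to the vertical line and 34 in the lower left, and in the Nkx2-2 line 12 cells lie in the upper left.

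The 16 Ccdc153-high cells made up 5.05% of their class and held most of its reads for 9 of the 10 genes. They held 95.8% of its Sspo reads, 98.3% of Npsr1, 96.1% of Spdef, 82.3% of Creb3l4 and 48.5% of Ttr. Their median Ccdc153 was 1333 CPM (1022 to 2718), near the threshold, against 160 in the 196 cells and 3594 in the other 301 Ccdc153-high cells. In the 196, 16 and 12 cells, Sspo had 9936, 11011 and 7289 CPM, Spdef 1786, 1863 and 1421, and Wfdc2 1612, 1802 and 1510. Spp2 had 3802, 3251 and 3136 CPM, Rbp4 1596, 1788 and 1280, Creb3l4 766, 803 and 558, and Npsr1 684, 572 and 565. Car3 had 726, 1129 and 912 CPM, and Igfbp6 643, 936 and 883. The 3 sets thus lay within a factor of 2 of each other for all genes, with Ttr (795, 449 and 745 CPM) among them. Of the 9 genes beside Sspo, the median high-Sspo cell had 8 at 100 CPM or more in each set, and all 9 were there in 73 of the 196, 4 of the 16 and 4 of the 12 cells.

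Without the 16 cells the Ccdc153-high class (301 cells) had 20.5 CPM of Sspo, 3.19 of Spdef, 0.407 of Npsr1, 2.46 of Wfdc2, 5.48 of Spp2 and 1.51 of Igfbp6. Creb3l4 had 7.30, Rbp4 6.0, Ttr 20.1 and Car3 24.8 CPM. The ratio of the low class to these 301 cells was then 430-fold for Sspo and 1491-fold for Npsr1, but 35.2-fold for Ttr and 26.0-fold for Car3. The size of the class ratio thus rested on where 16 cells near the threshold were placed, while all 10 genes stayed at least 2-fold higher.

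Low-level reads of the genes were common in midbrain cells outside the high-Sspo set. Sspo was read in 80.1% of all Ccdc153-high midbrain cells at a median of 3.28 CPM, and in 20.2% after thinning. It was read in 11.2% of lateral ventricle cells, 13.1% of those of the third ventricle and 9.65% of those of the spinal cord. Spp2 was read in 51.4% of all Ccdc153-high midbrain cells, at a median of 0.715 CPM, and in 0.833% of lateral ventricle cells of similar depth. The shares of the Ccdc153-high class include its 16 high-Sspo cells, 5.05% of the class. In the Nkx2-2 line cells with less than 1000 CPM of Sspo and low Ccdc153, which carry oligodendrocyte transcripts, Sspo was read in 25% of 296 cells. These reads were thus most frequent in the sample with the most high-Sspo cells. Whether they came from the cells themselves or from other wells cannot be told apart.

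Reads of the other genes per 100 Sspo reads were compared between the 196 high-Sspo cells and the 301 Ccdc153-high cells. Spdef had 18 reads per 100 Sspo reads in the 196 cells and 15.5 in the 301, Igfbp6 6.47 and 7.36, Wfdc2 16.2 and 12, and Spp2 38.3 and 26.7. Beside Igfbp6, the ratio was larger in the 301 cells for 4 genes, with Rbp4 at 16.1 and 29.2, Creb3l4 at 7.71 and 35.6, Ttr at 8.01 and 97.9 and Car3 at 7.30 and 121. For Npsr1 it was smaller, at 6.88 and 1.98. Ttr was also at 96.5 to 107 per 100 Sspo reads in the other 3 Foxj1 line regions, where the Sspo sums were small.

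The 34 Ccdc153-low midbrain cells with little Sspo had little of the other genes either. In 29 of them, 0 of the 9 genes reached 100 CPM. They also carried markers of other cells. The 9 astrocyte markers summed to 12898 CPM against 589 in the 196 cells, led by Gfap (3823 CPM), Slc1a3 (2739) and Agt (1579). Microglia markers summed to 584 against 3.21 CPM, with C1qa read in 2.94% of the cells. The median of the 34 cells was 0 CPM and the highest cell had 18991 CPM, so this sum rested on few cells. Mural markers summed to 1435 against 117 CPM, with 551 against 1.26 CPM in the median cell. The 10 ependymal markers summed to 2115 against 4968 CPM. Oligodendrocyte markers summed to 1221 against 306 CPM, but the median cell had 102 against 250 CPM. The highest of the 34 cells had 9898 CPM of them. The Ccdc153-low class was thus not made of high-Sspo cells alone, and leaving out the 34 raised the ratio of Sspo to the high class from 18.9-fold to 21.3-fold.

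In the Nkx2-2 line the same split gave 9 of 10 genes at least 2-fold higher in Ccdc153-low cells, where 27.5% of 10504 genes were, and 34.3% were at least 2-fold lower. Sspo was 25.2-fold higher (263 against 10.4 CPM), Rbp4 10.6-fold and Npsr1 5.34-fold, and Car3 was 1.18-fold (33.2 against 28.1 CPM). Spdef, Creb3l4, Igfbp6 and Ttr had 0 reads in the 19 Ccdc153-high cells, so that with those cells set to a floor of 3 reads in all they were at least 336-fold, 141-fold, 209-fold and 176-fold higher. These ratios rested on the 12 high-Sspo cells, which held from 93.5% (Creb3l4) to 99.9% (Spdef) of the class's reads. Without them only Sspo (9.55 against 10.4 CPM) and Car3 (1.41 against 28.1) had 10 CPM or more in either class. None of the 10 genes was then called higher, where 27.3% of all genes were, and 1, Car3, was called lower, where 35.4% were. With the threshold at 100 CPM, 6 of the 12 cells moved to the high class of 27 cells and all 10 genes were at least 2-fold lower in the low class, against 36.5% of all genes. The rest of the Nkx2-2 line low class carried oligodendrocyte markers at a summed 105966 CPM, against 4928 in the 12 cells, in which ependymal markers summed to 4227 CPM. The highest of the 12 cells reached 87447 CPM of oligodendrocyte markers, and the median of the 12 was 609 CPM.

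Ttr and Car3 reads were the most concentrated in few Ccdc153-low midbrain cells among the 10 genes. For each gene, the 23 of the 230 Ccdc153-low cells with the highest level were taken. They held 68.7% of the Ttr reads and 49.0% of the Car3 reads, against 20.9% to 31.9% for the other 8 genes. The median cell had 77.0 CPM of Ttr, with quartiles of 18 and 413 and a maximum of 12044 CPM. Among all 212 midbrain cells with 1000 CPM or more of Sspo, 45 had 1000 CPM or more of Ttr, 68 had between 100 and 1000, and 99 had less than 100. These are ranges of a continuous level and not types.

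By summed level, Spp2 and Spdef were not higher in the cells with much Ttr. In the 45, 68 and 99 cells, Spp2 had 3632, 3786 and 3818 CPM and Spdef 1716, 1753 and 1848. Igfbp6 had 696, 574 and 700 CPM in sum, but its median cell had 765, 515 and 532 CPM and was highest in the 45. Wfdc2 had 1720 CPM in the 45 and 1581 in the 99 cells. Sspo had 11169, 11130 and 8758 CPM and Rbp4 1725, 1754 and 1461, so that these 2 genes were lower in the cells with less than 100 CPM of Ttr. Because Ttr is a marker of the choroid plexus, other markers of it are given beside these values. Of 12 such markers 9 were in the table. In the 45 cells Clic6 had 0.0544 CPM, Kcne2 2.91, Prlr 0.109, and Cldn2 and Sostdc1 had 0 reads, while Folr1 had 241 CPM and Otx2 264. Folr1 had 219 and 244 CPM and Otx2 330 and 310 CPM in the 68 and 99 cells with less Ttr. In those 68 and 99 cells Cldn2 had 24.8 and 14.0 CPM, read in 8.82% and 9.09% of them. Clic6, Kcne2, Prlr and Sostdc1 had 0.205 CPM or less there. Enpp2, the remaining abundant marker, had 842, 965 and 1108 CPM in the 3 ranges. The median cell had 215, 219 and 175 CPM of Folr1 and 256, 277 and 222 of Otx2. Enpp2 was thus lowest in the cells with much Ttr, Folr1 and Otx2 did not follow the order of the 3 ranges, and Kcne2 was read in 4.44% of the 45.

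Levels were next compared between the 7 blocks of 96 consecutive wells, under the assumption that the cell numbers follow the wells. The Ccdc153-low and Ccdc153-high ranges over the blocks did not overlap for any of the 10 genes, where 6.99% of 10843 genes separated in this direction and 7.47% in the other. The class split was part of how the 10 genes were chosen, so their separation is a description. In the low class Spdef was steadiest, from 1344 to 1746 CPM (1.30-fold), and Spp2 and Rbp4 varied 1.66-fold and 1.69-fold. Ttr varied most, from 250 CPM in block 6 to 1229 in block 1 (4.92-fold), and Sspo 3.17-fold, from 4046 to 12812 CPM in the same blocks. Npsr1 was also lowest in block 6, at 249 CPM, whereas Creb3l4 (909), Wfdc2 (2088), Spp2 (4559), Igfbp6 (984) and Rbp4 (1894 CPM) were highest there. Block 6 thus had the lowest levels of Sspo, Spdef, Npsr1 and Ttr and the highest of 5 secreted or regulatory genes. Within the high-Sspo cells alone the median Sspo was again lowest in block 6 (19 cells), but Ttr was not: 3 of those cells (15.8%) had 1000 CPM or more, within a range over the blocks of 13.6% (3 of 22, block 3) to 27.9% (12 of 43, block 2), and the median Ttr of 98.3 CPM was above those of blocks 3 (43.0) and 4 (56.8). In the high class block 7 was lowest for all 10 genes, with Sspo at 30.7 CPM.

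**Figure D3:**
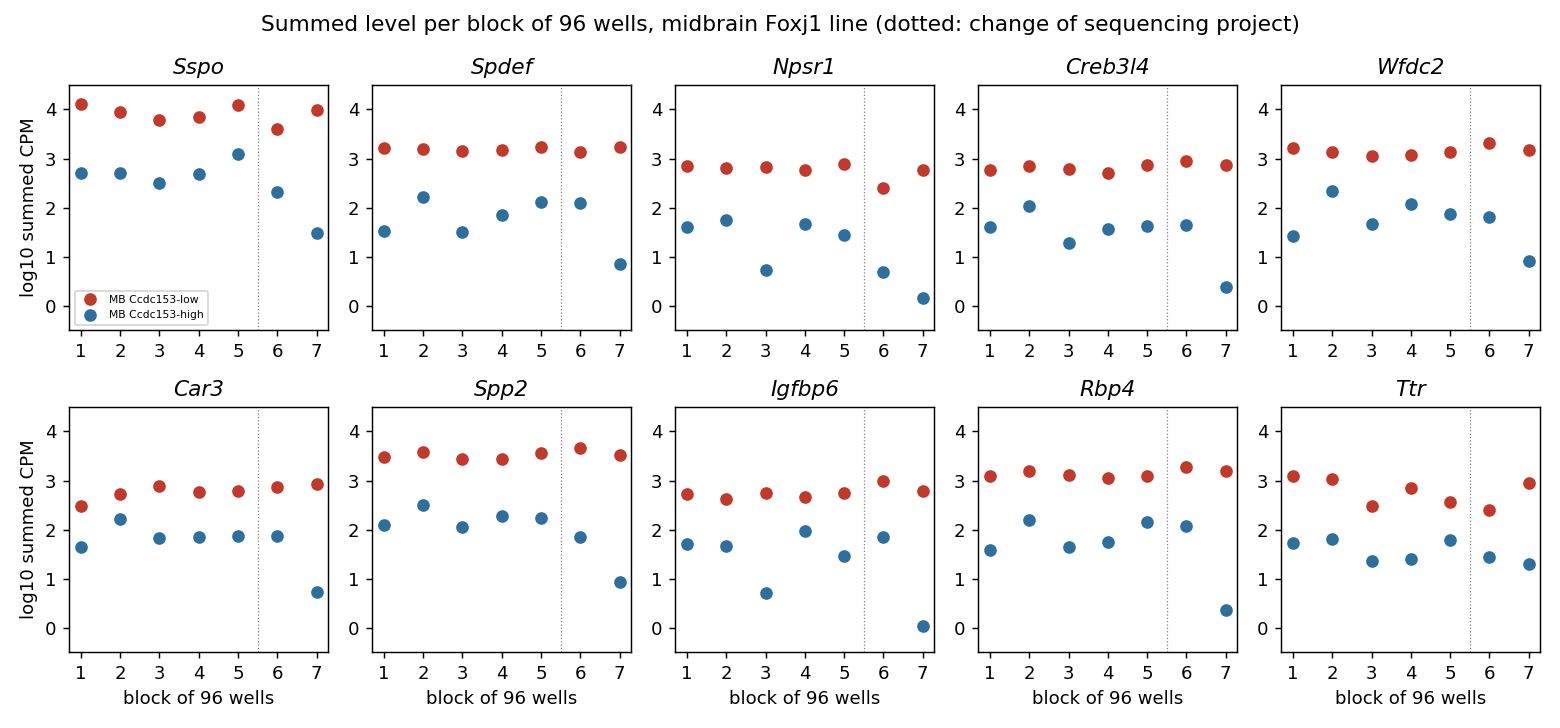
Summed level of each gene in the 7 blocks of 96 wells (x axis) of the Foxj1 line midbrain, as log10 of CPM (y axis). Ccdc153-low cells are red and Ccdc153-high cells blue. The dotted line marks the change of sequencing project if the cell numbers follow the wells. The red points lie above all blue points for every gene, and Ttr and Sspo spread most among the red points.

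The classes were also described by sequencing project. The project of a cell was taken from its number, assuming that numbers follow the wells, as no label gives it. In the low class Sspo had 9200 CPM in the first project and 8007 in the second, Spdef 1575 and 1614, Npsr1 668 and 474, Car3 570 and 809, and Ttr 721 and 680. In the high class the second project was lower for all 10 genes, with Sspo at 112 against 613 CPM and Npsr1 at 3.06 against 32.1. Of the 16 Ccdc153-high cells with 1000 CPM or more of Sspo, 15 were in the first project and 1 in the second, and the median cell of the class had 3.73 and 2.31 CPM of Sspo. All 10 genes were at least 2-fold higher in the low class within each project.

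Over the 547 Foxj1 line midbrain cells, the Spearman correlation with Sspo was 0.79 for Npsr1, 0.78 for Creb3l4 and for Spdef, 0.77 for Spp2, 0.76 for Wfdc2, 0.75 for Rbp4 and 0.74 for Igfbp6. Car3 had 0.62 and Ttr 0.57. Npsr1, Creb3l4, Spdef, Spp2 and Wfdc2 took ranks 1 to 5 among 10084 genes, whereas Car3 was at rank 61 and Ttr at 103. All 9 were at 0.3 or more, where 7.4% of genes were, and the median over all genes was 0.06. Projects were again assigned by cell number. Within the first project (402 cells) the values ran from 0.56 to 0.78, and within the second (145 cells) from 0.58 to 0.82. Cells share a library preparation, plates and animals, so these values carry no p.

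Within the classes the correlations were lower. Over the 230 Ccdc153-low cells Npsr1 had 0.55, Ttr 0.46, Spdef 0.42, Wfdc2 0.36, Rbp4 0.34, Igfbp6 0.33, Creb3l4 0.31, Spp2 0.30 and Car3 0.26, so that 8 of 9 reached 0.3 against 3.42% of genes. Over the 317 Ccdc153-high cells only Spp2 (0.37), Creb3l4 (0.33) and Spdef (0.32) did, against 0.139% of genes. Each class mixed cells with and without high Sspo, 196 and 34 in the low class and 16 and 301 in the high class. The genes were chosen as high together with Sspo, so these counts are a description. Depth moved little with Sspo in the low class (0.10 with total reads), but the number of detected genes did (0.63).

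Among the 212 midbrain cells that had 1000 CPM or more of Sspo, most of these correlations were gone. Npsr1 had 0.29 and Ttr 0.26, at ranks 71 and 160 of the 10084 genes. The other 7 lay between -0.13 (Spp2) and 0.04 (Spdef), with 0 of 9 at 0.3 or more, where 0.466% of genes were. The median of the 9 was -0.06, against 0.05 for all genes. The values over all midbrain cells thus also held the difference between cells with and without the set, as could those within the mixed classes. Over the pooled 212 cells, a cell with more Sspo did not tend to have more Spdef, Creb3l4, Wfdc2, Spp2, Igfbp6, Rbp4 or Car3. The 212 cells came from 7 blocks of wells and 2 sequencing projects, and their correlations within a block or project are not given. In block 6 the low class had the lowest Sspo and the highest Creb3l4, Wfdc2, Spp2, Igfbp6 and Rbp4. The pooled values can thus also hold differences between blocks. Among the 212 cells Sspo still went with the number of detected genes (0.48) and not with total reads (0.00).

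**Figure D4:**
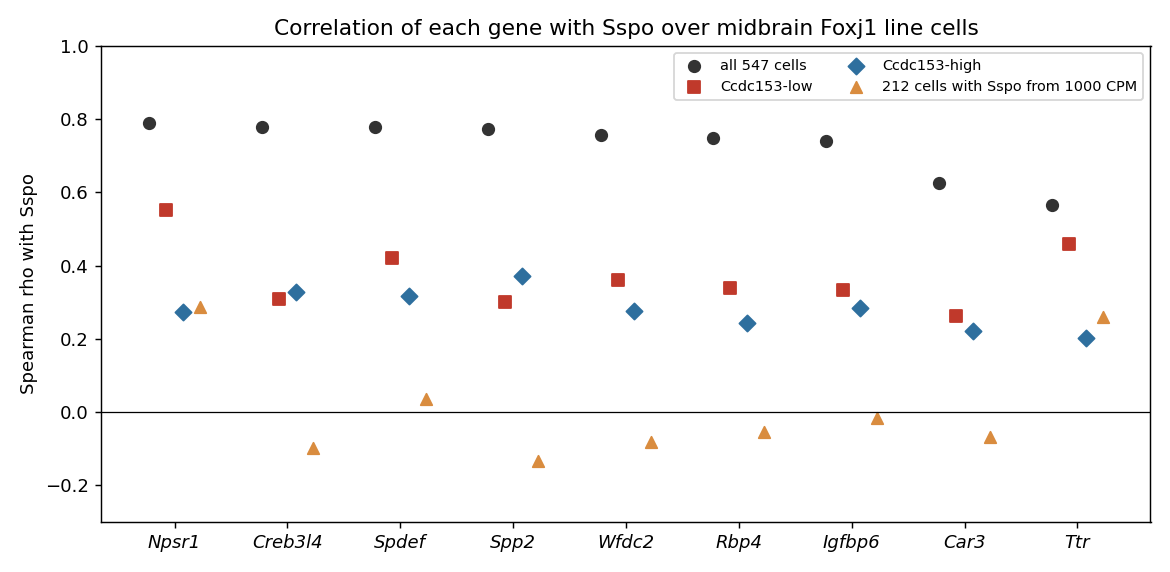
Spearman correlation of each gene with Sspo (y axis) over all 547 midbrain cells of the Foxj1 line, the 230 Ccdc153-low cells, the 317 Ccdc153-high cells and the 212 cells with 1000 CPM or more of Sspo. The values of 0.57 to 0.79 over all cells fall to between -0.13 and 0.29 among the 212 cells, where Npsr1 and Ttr are highest.

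The genes also went with each other less closely within the set. The 45 pairs of the 10 genes had Spearman values of 0.19 to 0.58 over the Ccdc153-low cells, with a median of 0.36. Over the 212 cells they had -0.13 to 0.35, with a median of 0.03. Wfdc2 and Igfbp6 were the closest pair in both, at 0.58 and 0.35. Igfbp6 and Rbp4 had 0.54 and 0.27, and Creb3l4 and Ttr were the most distant pair without Sspo, at 0.19 and -0.10.

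Genes outside the set with the most similar pattern to Sspo over the 547 cells, by the same Spearman measure, were Diras2 (0.75), Enpp2 (0.75), Cdh11 (0.73), Thrsp (0.73), Epha7 (0.73), Sez6l (0.72), Btbd17 (0.72), Drd1 (0.72) and Nsg2 (0.72). Fosb, Slc29a4, Gfra1, Tst, Ldlrad2 and Gnb2 followed, between 0.71 and 0.70. Enpp2 (autotaxin) had 915 CPM in Ccdc153-low and 51.3 in Ccdc153-high midbrain cells, but 5374 CPM in Ccdc153-low Nkx2-2 line cells, where Sspo had 263. Drd1, a dopamine receptor, had 207 and 12.4 CPM, and Slc29a4, a monoamine transporter, 203 and 5.38 CPM. Within the 212 cells a partly different order held: Gfra1, a co-receptor for GDNF, had the highest value of all genes at 0.50, followed by Nsg2 at 0.47, and Diras2 had 0.41 and Cdh11 0.39. Drd1 had 0.34, Enpp2 0.10 and Tst -0.13. Gfra1, Nsg2, Diras2, Cdh11 and Drd1 thus followed the Sspo level among high-Sspo cells more closely than any of the 9 genes did. They were picked by correlation with Sspo over the 547 cells, which include these 212, so the comparison is a selected one. Their correlation with the number of detected genes is not given.

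Other genes of the families and pathways of the 10 genes did not share their direction throughout. In all, 45 such genes had 10 CPM or more in either midbrain class, of which 20 were at least 2-fold higher in Ccdc153-low cells and 11 at least 2-fold lower, beside 18.3% and 13.8% of all genes. Of 8 genes of the CREB3 family and secretory stress factors, 4 were higher and 1 lower. Xbp1, a factor of the unfolded protein response, had 443 against 104 CPM and Atf4 340 against 111. Creb3l2 had 72.9 against 12.5 CPM, while its relative Creb3l1 was lower, at 24.5 against 51.3. Creb3l2 and Creb3l1, like Rbp2, Rab3d and Car8, were picked for mention after their values were seen.

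All 4 genes of secretory epithelia at that level were higher, with Galnt12, an enzyme that starts O-linked glycosylation, at 71.2 against 3.72 CPM, Kdelr3, a receptor that returns proteins to the endoplasmic reticulum, at 274 against 112, and Rab3d, a small GTPase of secretory granules, at 64.8 against 9.93. Neither of the 2 ETS factors counted beside Spdef differed 2-fold, with Ets2 at 21.7 against 13.7 CPM. Neither gene of the neuropeptide S list did, with Gnaq at 30.3 against 17.7 CPM.

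The retinoid and thyroxine list divided. Of 10 genes 3 were higher and 4 lower. Rbp2, an intracellular retinol-binding protein, had 1.51 against 60.5 CPM, the opposite of the secreted Rbp4. Rarres2, a chemokine that is also an ependymal marker, had 61.4 against 2207 CPM. Among 6 insulin-like growth factor genes, Igfbp2 had 53.3 against 432 CPM and Igfbp4 11 against 4.99, so that Igfbp2 was lower where Igfbp6 was higher. Wfdc3, the only other family member of Wfdc2 at that level, was lower, at 7.14 against 20.5 CPM.

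Of 4 carbonic anhydrases beside Car3, 3 were higher and 1 lower. Car2 had 40.9 against 12.5 CPM and Car8 12.9 against 0.434, while Car9, a membrane-bound form, had 0.0978 against 249.5 CPM, 2553-fold lower. Cst3, an abundant secreted cystatin, had 5252 against 1129 CPM. Among 6 genes listed beside Sspo for spondin or thrombospondin repeats and related secreted proteins, 4 were higher and 2 lower, with Adamts1 at 377 against 30.6 CPM and Clu, which encodes clusterin, at 1716 against 10035.

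**Figure D5:**
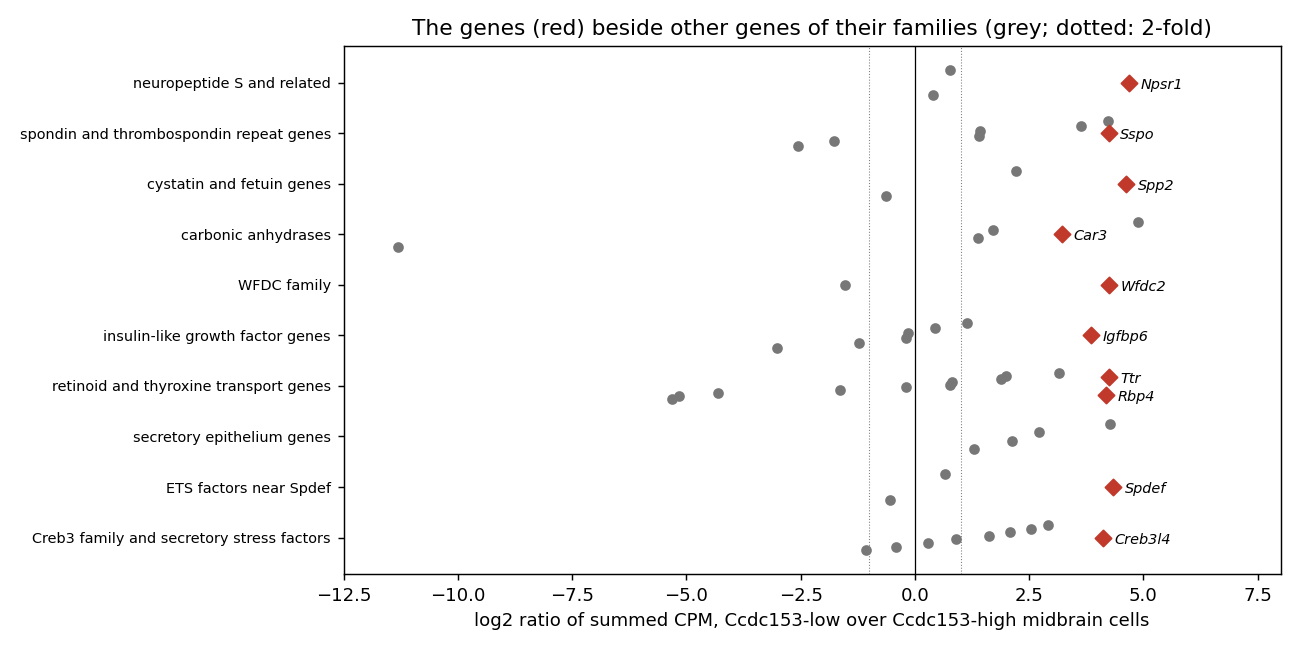
Log2 ratio of the summed CPM of Ccdc153-low over Ccdc153-high midbrain cells (x axis) for the 10 genes (red) and the other genes at 10 CPM or more of their families and pathways (grey), 1 list per row; dotted lines mark a 2-fold difference. The red points lie between 3.21 and 4.69. Grey points lie on both sides of 0 in every row except those of secretory epithelium, the WFDC family and neuropeptide S.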

How the data were processed

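The measurements were single-cell RNA sequencing by Smart-seq2 of 5 mouse samples, 1 per group. The authors deposited 2 tables over the same 1473 cells: whole-number read counts per gene, not normalized, and log2 values. The deposited log2 values matched, for 100% of entries and to 0.01, log2(count / size factor + 1) with 1 size factor a cell. STAR 2.3.1o, Seurat 3 and mm10 are named in the submitters' processing notes; the counting tool and annotation are not given in the sources used here. All levels come from the counts, summed per group and scaled to CPM. The start of a column name gave its sample, with 0 columns unmatched, 0 names shared and 0 columns identical. No cell was removed (lowest depth 108417 reads), and no doublet caller was run.

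No test or p-value could be had from groups of 1 sample. A gene was called at a 2-fold difference of summed CPM with 10 CPM or more in either class, and a fold against 0 reads was computed against 3 reads over the group. Shares have exact Clopper-Pearson 95% intervals. Correlations are Spearman's over cells. The genes named beside the 10 are the 15 with the highest correlation with Sspo, among genes read in at least 10% of midbrain cells, and from each list the 2 with the highest level that differed 2-fold, else the highest 1. A gene that this rule names is not reported here. The 10 genes and the lists were chosen with earlier results of these data known. Coordinates and exon lengths are from GENCODE vM21 (GRCm38), and promoters from RefSeq (GRCm38.p6). The first 480 midbrain wells belong to the first of 2 sequencing projects. Cells were placed in wells and projects by their numbers, an order that no label states. The alternatives tried were other Ccdc153 thresholds, mean CPM per cell, the deposited log2 values, no minimum level, single projects, thinned cells and leaving out blocks of wells or classes of cells. Scripts ran in Python 3.11.15 with numpy 2.4.6, pandas 2.3.3 and scipy 1.17.1, and the computations were tested on simulated data.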

Additional observations from a re-analysis of the deposited data

How the results depend on the processing

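All 10 genes stayed at least 2-fold higher in Ccdc153-low midbrain cells under every alternative run, which covered thresholds of 100 and 3000 CPM of Ccdc153, single sequencing projects, and leaving out each block of wells in turn. The size of the ratio depended on the threshold, with log2 values of 1.46 at 100 CPM and 8.33 at 3000 CPM for Sspo and 2.26 and 4.79 for Ttr. Leaving out the 16 Ccdc153-high cells with high Sspo gave 8.75 and 5.14, the highest of the alternatives run. In the Nkx2-2 line, the 9 genes higher in the low class became 0 with the threshold at 100 CPM. Without the cells of high Sspo 0 were called higher, but only 2 of the 10 genes then had the level needed for a call. The 9 genes at a correlation with Sspo of 0.3 or more became 3 over Ccdc153-high cells alone and 0 over cells with 1000 CPM or more of Sspo, an alternative chosen after seeing the data like those that left out cells or blocks. In that last setting the sign changed for Creb3l4 (-0.10), Wfdc2 (-0.082), Car3 (-0.068), Spp2 (-0.13), Igfbp6 (-0.017) and Rbp4 (-0.056); the cause was not tested. Of 45 family genes, 31 differed 2-fold in the main analysis and 28 at each other threshold. No paired analysis was possible because each group held 1 sample and no label tied cells to animals. The data hold no replicate spread between samples, so every difference between regions or lines is one between single samples, and the split of the Nkx2-2 line sets 308 cells against 19.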
